A study of Mus musculus with 6 samples.

Results

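The genes described are the DOCK, ARHGEF and ARHGAP families, which encode the activators and inactivators of small GTPases such as RhoA, Rac1 and Cdc42. They were taken by symbol from the table of counts per gene of B16-OVA cells. Of its 56734 gene symbols, 70 carried a family symbol with a number (Dock1, Arhgef10l and the like), and the 63 with a mean of 10 or more counts over the libraries were kept as members. These were 10 DOCK, 23 ARHGEF and 30 ARHGAP genes, and all 63 had enough counts to be tested. B16-OVA cells are mouse melanoma cells of the B16 line engineered to make ovalbumin, a model antigen, so every group carries that transgene. Polyadenylated RNA was sequenced from 3 WT libraries, whose titles carry the tag gNC, and 3 Ythdf2-KO libraries, whose titles carry the tag gY2. Both genotypes were grown in serum-supplemented DMEM with no further treatment named. The labels do not say whether the knockout was 1 clone or a pool, nor whether libraries of a genotype came from separate cultures, so p-values measure the spread between these libraries only. YTHDF2, the product of the targeted gene, binds mRNAs that carry N6-methyladenosine and is known to promote their decay.

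RhoA, Rac1, Cdc42 and their relatives are switches that set the shape and movement of a cell through actin and myosin. Guanine nucleotide exchange factors (GEFs) load them with GTP and turn them on, whereas GTPase-activating proteins (GAPs) speed the hydrolysis of that GTP and turn them off. DOCK proteins are GEFs of Rac and Cdc42 with a catalytic DHR2 domain, most ARHGEF proteins are GEFs with a Dbl-homology domain, and ARHGAP proteins carry a RhoGAP domain. In melanoma cells this balance is known for its part in the switch between elongated, Rac-driven movement, in which DOCK3 acts, and rounded, amoeboid movement, in which DOCK10 and ARHGAP22 act.

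Total counts were 55660473 to 69497273 per library, and the members together took 0.287 to 0.302% of them. Levels below are CPM (counts scaled to a common library size), adjusted by the trimmed mean of M-values (TMM), and changes are log2 fold changes of Ythdf2-KO over WT from edgeR's quasi-likelihood fit over 17718 genes. A gene was called at a Benjamini-Hochberg adjusted p under 0.05 over all of these genes. Ythdf2 itself stood at 124, 124 and 125 CPM in WT against 100.1, 100.5 and 104 CPM in the knockout (log2 -0.29 ± 0.027 SE, edgeR adjusted p = 4.08e-13). Its RNA was thus lower in every knockout library; the edit and the protein were not measured. All 7 melanocyte markers were detected, with a summed level of 237 to 241 CPM in WT against 1401 to 1431 CPM in the knockout. Summed epithelial markers reached at most 0.659 CPM and endothelial markers 2.66 CPM, with Emcn at 0. The 7 fibroblast markers summed to 1158 to 1195 CPM, but 5 were higher and 2 lower: Dcn fell 11.7-fold from 487 to 41.6 CPM, and Col1a1 rose 4.56-fold from 42.5 to 193.5 CPM. The 17 leukocyte markers summed to 51.0 to 53.2 CPM in WT against 63.5 to 66.2 CPM in the knockout. Of the 9 tested, 4 were higher and 3 lower: Lcp1 rose 3.37-fold from 3.40 to 11.49 CPM, and Cd68 fell 1.43-fold from 20.4 to 14.25 CPM. Ptprc, the pan-leukocyte gene, had 74 counts in the third knockout library, against 2 and 0 in the others and 2, 6 and 5 in WT. In such bulk RNA, fewer cells of a type and less RNA per cell cannot be told apart.

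The regulators differed between the genotypes in many members and mostly by small amounts. Of the 63 members, 33 were higher and 14 lower in Ythdf2-KO, so 74.6% were called, against 49.9% of all genes tested. By direction, 52.4% of the members were higher against 24.1% of all genes, and 22.2% were lower against 25.8%. Many members are long genes, and among the length quartile of genes with the longest exons (6030 bases or more), which held 43 of them, 36.3% were higher and 30.6% lower. The groups of libraries did not overlap for 45 members, or 71.4% of them, against 55.9% of all genes. Of the 47 called members, 32 lay less than 1.5-fold apart, 10 were at least 1.5-fold higher (15.9% of members against 9.15% of all genes) and 5 at least 1.5-fold lower (7.94% against 5.89%).

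**Figure D1:**
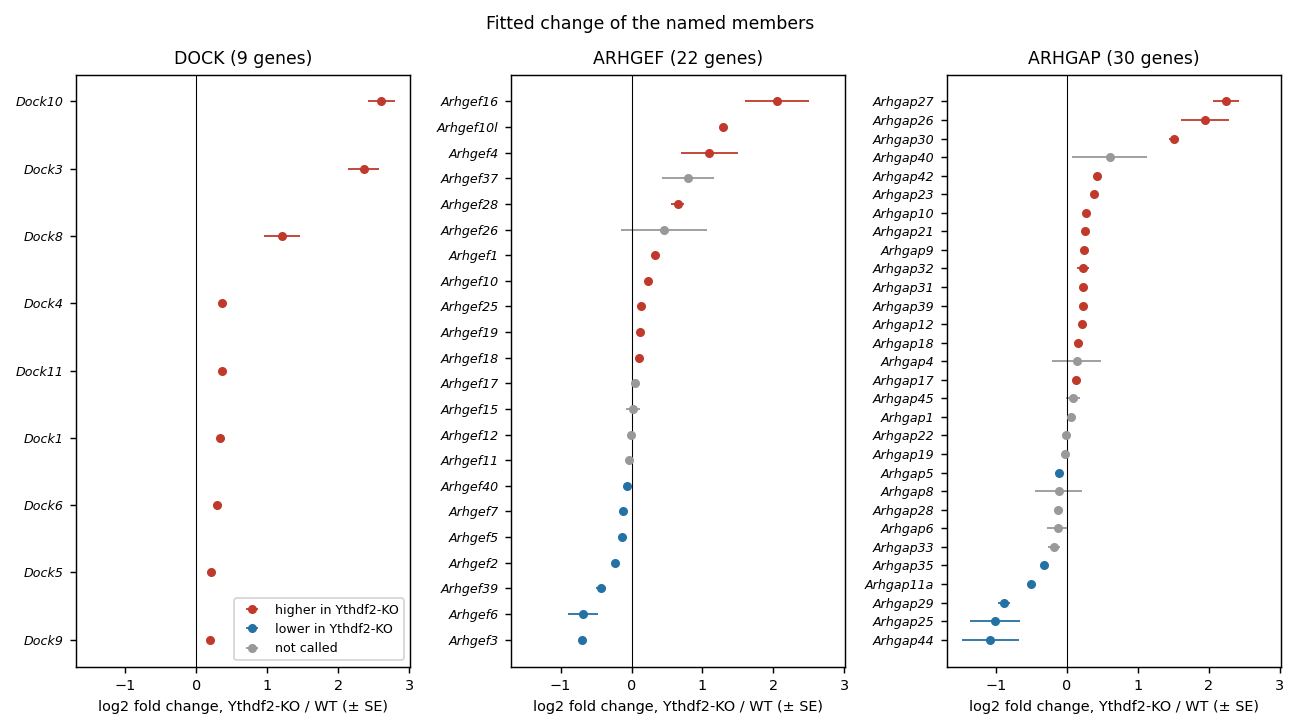
Fitted log2 fold change of each member named in the text, Ythdf2-KO over WT, with its standard error, in a panel for each family. Red points were called higher, blue points lower and grey points were not called. All 9 DOCK genes drawn lie right of 0.

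The families differed in their counts. All 10 DOCK members were called, 9 higher (90%) and 1 lower (10%), and their median log2 change was 0.35. Of the 23 ARHGEF members, 10 were higher (43.5%) and 7 lower (30.4%), with a median of 0.11. Of the 30 ARHGAP members, 14 were higher (46.7%) and 6 lower (20%), with a median of 0.14. Of all genes tested, 24.1% were higher and 25.8% lower, with a median of -0.005. The shares of ARHGEF and ARHGAP members called lower were thus near that of all genes. The difference between the families was not tested. With offsets for exon length and GC content, 20 members were higher and 19 lower, so 51.3% of their calls were higher. Over all 17718 genes, 3307 were then higher and 5625 lower, which moved the split of all calls from 48.3 to 37.0% higher. Under those offsets DOCK genes stood at 6 higher and 1 lower (median 0.17), ARHGEF at 5 and 10 (median -0.034) and ARHGAP at 9 and 8 (median 0.003). With upper-quartile scaling, under which 59.2% of all calls were higher, 35 members were higher and 11 lower.

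**Figure D2:**
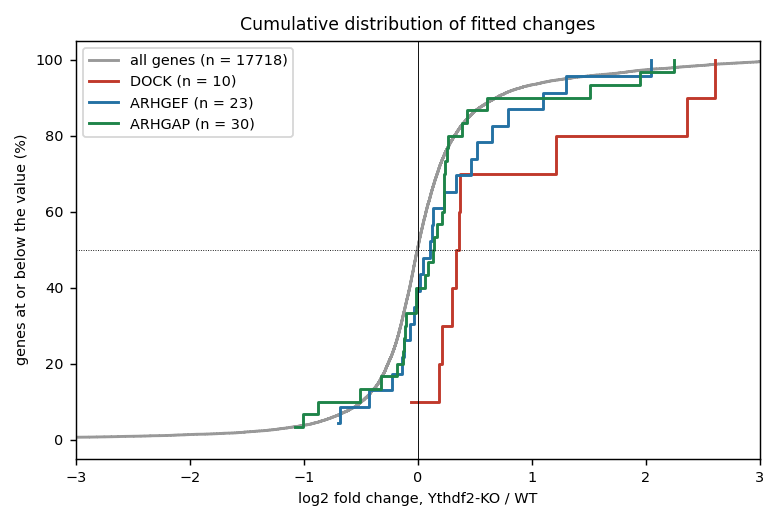
Cumulative share of genes at or below each log2 fold change, for the 3 families and for all 17718 genes tested, drawn between -3 and 3. The DOCK curve lies to the right of the others up to its median of 0.35, and the ARHGEF and ARHGAP curves cross 50% at 0.11 and 0.14.

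Called changes of 2-fold or more lay mostly among the rare members. Standard errors are wide at such levels, so small changes are seldom called there, and the same split over all genes was not made. The 17 members under 5 CPM in both genotypes held 7 of the 9 members that were at least 2-fold higher and both of those at least 2-fold lower. The other 46 members held 2 that were at least 2-fold higher, Arhgap30 and Arhgef10l, and none at least 2-fold lower. In all, 14.3% of the members rose and 3.17% fell by 2-fold or more, against 6.16 and 3.38% of all genes. Summed over the 10 DOCK members, RNA stood at 529.5 ± 15.99 CPM in WT against 602 ± 6.197 CPM in the knockout (SD, n = 3). The 23 ARHGEF members summed to 1248 ± 17.3 and 1224 ± 15.8 CPM, and the 30 ARHGAP members to 1152 ± 13.6 and 1157 ± 10.5 CPM. The summed RNA of the last 2 families overlapped between the libraries of the genotypes, while that of the DOCK genes did not. ARHGEF sums ran from 1228 to 1261 CPM in WT and from 1209 to 1241 CPM in the knockout.

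**Figure D3:**
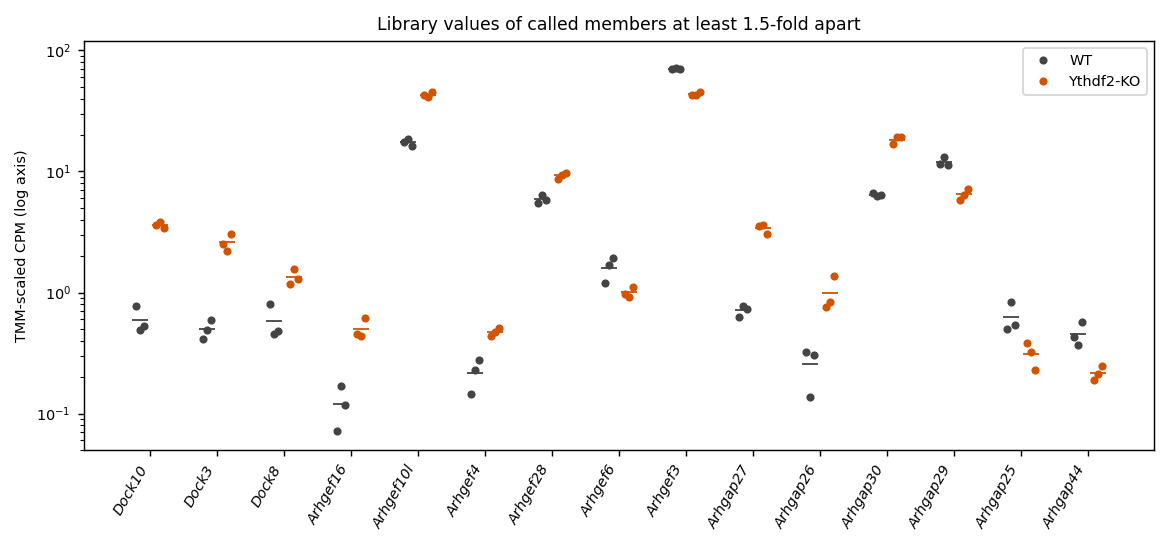
TMM-scaled CPM on a log axis in each of the 3 WT (grey) and 3 Ythdf2-KO (orange) libraries for the 15 called members at least 1.5-fold apart, with a bar at each mean. No WT value overlaps the Ythdf2-KO values of the same gene.

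The DOCK genes fall by sequence into subgroups A to D, of which A and B act mainly on Rac, D on Cdc42 and C on either. In subgroup D, Dock10, the Cdc42 activator zizimin3, showed the largest rise of any member. It stood at 0.774, 0.489 and 0.525 CPM in WT against 3.63, 3.81 and 3.39 CPM in the knockout, here and throughout in the order of the replicate numbers. Every knockout library was thus above every WT library, and the rise was 6.11-fold (log2 2.61 ± 0.19 SE, edgeR adjusted p = 5.20e-16). Its closest relative Dock11, or zizimin2, was far more abundant, at 85.6, 89.5 and 80.6 CPM in WT against 109.5, 109 and 109.8 CPM in the knockout. The libraries again separated, with a rise of 1.29-fold (log2 0.36 ± 0.030 SE, edgeR adjusted p = 7.25e-14). Dock9, or zizimin1, rose 1.14-fold, from 37.7 ± 0.402 to 42.9 ± 1.70 CPM (SD, n = 3), a call that was lost with the length and GC offsets (edgeR adjusted p = 0.916).

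In subgroup B, Dock3, a Rac activator best known from neurons, stood at 0.414, 0.489 and 0.598 CPM in WT against 2.52, 2.202 and 3.06 CPM in the knockout. The lowest knockout library held several times the highest WT value, and the rise was 5.14-fold (log2 2.36 ± 0.22 SE, edgeR adjusted p = 5.53e-13). Its paralog Dock4 rose 1.29-fold, from 29.5 ± 0.997 to 38.0 ± 0.816 CPM. In subgroup A, Dock1, the founding member DOCK180 that works with ELMO proteins in engulfment and migration, rose 1.26-fold from 63.2 ± 3.34 to 79.7 ± 1.56 CPM. Dock5, a Rac activator of the same subgroup, stood at 96.4, 100.4 and 93.8 CPM in WT against 110.7, 113 and 113 CPM in the knockout. It rose 1.16-fold without overlap (edgeR adjusted p = 1.53e-08), with the call lost under the offsets (edgeR adjusted p = 0.323). Dock2, the form of blood cells, lay under the minimum, with 5, 0 and 2 counts in WT and 2, 10 and 16 in Ythdf2-KO.

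In subgroup C, Dock8, which is required for lymphocyte movement and immunity, stood at 0.810, 0.458 and 0.482 CPM in WT against 1.17, 1.56 and 1.30 CPM in the knockout. The groups separated, by 2.32-fold (log2 1.21 ± 0.26 SE, edgeR adjusted p = 8.55e-05). In the knockout library with the Ptprc counts, replicate 3, Dock1, Dock3 and Dock11 were the highest of their group. The other DOCK genes called higher, Dock8 and Dock10 among them, were not. Without that library all 9 DOCK genes called higher were still called. Whether leukocyte RNA had a part in the level of any member was not tested. Dock6 rose 1.23-fold, from 19.3 ± 1.80 to 23.7 ± 0.547 CPM, but not with the offsets (edgeR adjusted p = 0.0670).

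Per kilobase of exon, Dock11 stood above Dock5 and Dock1 in both genotypes. Dock11 was at 9.22 ± 0.482 CPM per kilobase in WT and 11.8 ± 0.0417 in Ythdf2-KO (SD, n = 3). Dock5 followed at 7.96 ± 0.272 and 9.21 ± 0.0998 and Dock1 at 6.78 ± 0.358 and 8.54 ± 0.168 CPM per kilobase.

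Of the members that rose at least 2-fold to a mean of 1 CPM or more, Dock10 and Dock3 had the largest rises. Among the same members, a searched motif was found at Arhgef10l and Arhgap27. Start-site sequences are shown for these 4, a choice that says nothing on shared control. They are RefSeq windows of GRCm38.p6, another build than the GRCm39 of the counts, each of 300 bases around an annotated start, and 46 of the 63 members had at least 1. Motif matches on either strand are in capitals. Searched were the E-box forms CACGTG and CATGTG, which MITF can bind, and the AP-1 site TGANTCA, each on its own; none of the matches shown overlap. The Dock10 window (chr1:80758504-80758803, minus strand) and the Dock3 window (chr9:107231860-107232159, minus strand) are GC-rich, at 70.0 and 71.7%, and held none of them. A further Dock10 window, at another start, has 43.7% GC and held none either. The bases just after the start in both Dock10 windows were not found in its GENCODE M21 transcripts, unlike those of the other windows shown. The Arhgef10l window (chr4:140665838-140666137, minus strand) held TGACTCA at 2 places, 179 and 56 bases before the start. Its other window overlaps this one and holds the same 2 sites, 161 and 38 bases before its own start. The Arhgap27 window at its downstream start (chr11:103344653-103344952, minus strand) held CACGTG, 218 bases before the start, while its other window held none of the motifs. Among the other members at least 2-fold higher, the windows of Arhgap30 and Dock8 held none. Arhgef16 and Arhgef4, both under 1 CPM, each had 1 window with CACGTG, and Arhgap26 had no window.
Dock10: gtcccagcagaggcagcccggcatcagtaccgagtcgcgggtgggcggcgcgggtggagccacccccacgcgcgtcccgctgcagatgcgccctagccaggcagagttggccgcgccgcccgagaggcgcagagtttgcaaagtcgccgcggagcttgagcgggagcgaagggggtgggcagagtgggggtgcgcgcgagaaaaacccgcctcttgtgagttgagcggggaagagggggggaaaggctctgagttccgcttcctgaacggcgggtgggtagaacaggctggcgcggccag
Dock3: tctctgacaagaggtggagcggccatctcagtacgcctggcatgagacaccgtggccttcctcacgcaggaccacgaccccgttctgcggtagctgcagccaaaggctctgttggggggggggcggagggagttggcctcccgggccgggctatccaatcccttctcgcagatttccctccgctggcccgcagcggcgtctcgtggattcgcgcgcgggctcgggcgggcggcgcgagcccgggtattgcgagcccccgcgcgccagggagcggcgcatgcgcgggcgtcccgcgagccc
Arhgef10l: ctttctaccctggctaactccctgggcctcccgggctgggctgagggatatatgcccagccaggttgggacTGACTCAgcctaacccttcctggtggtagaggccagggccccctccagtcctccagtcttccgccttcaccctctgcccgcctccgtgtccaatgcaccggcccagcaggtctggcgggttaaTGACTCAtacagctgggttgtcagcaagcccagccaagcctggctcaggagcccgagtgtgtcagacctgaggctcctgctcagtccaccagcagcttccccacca
Arhgap27: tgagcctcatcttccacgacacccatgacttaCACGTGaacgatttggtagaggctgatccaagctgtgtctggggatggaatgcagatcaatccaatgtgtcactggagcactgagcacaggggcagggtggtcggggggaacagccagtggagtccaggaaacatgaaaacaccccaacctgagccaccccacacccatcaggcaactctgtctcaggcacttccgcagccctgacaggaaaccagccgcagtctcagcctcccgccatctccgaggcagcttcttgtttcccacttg
Of the 32851 windows of all genes, 7.15% held CACGTG, 14.2% CATGTG and 7.81% TGANTCA. Of the 73 windows of members the shares were 11.0, 15.1 and 8.22%, on 8, 11 and 6 windows. Where windows of a gene overlap, as at Arhgef10l, the same site is counted more than once. A match is a run of letters only, and binding was not measured.

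Among the ARHGEF members, the ARHGEF10 and ARHGEF17 group held the smallest adjusted p. Arhgef10l, which encodes the RhoA-directed GrinchGEF, stood at 17.4, 18.6 and 16.3 CPM in WT against 42.4, 40.8 and 45.0 CPM in the knockout. The separation was complete, with a 2.45-fold rise (log2 1.30 ± 0.050 SE, edgeR adjusted p = 4.59e-26), the smallest p of any member. Its relative Arhgef10 rose 1.17-fold, from 32.3 ± 0.219 to 37.9 ± 1.98 CPM, but not with the offsets (edgeR adjusted p = 0.147). Arhgef17, or TEM4, was at 85.1 ± 3.12 and 87.7 ± 1.58 CPM and did not pass (edgeR adjusted p = 0.237). It was called lower with the offsets (log2 -0.15, edgeR adjusted p = 6.99e-05) and higher with upper-quartile scaling (log2 0.098, edgeR adjusted p = 0.00433).

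The RhoGEFs with an RGS domain link G12/13-coupled receptors to RhoA. Arhgef1, or p115-RhoGEF, rose 1.26-fold from 82.3 ± 2.57 to 104 ± 0.629 CPM (SD, n = 3), with no overlap of the libraries. Arhgef11, or PDZ-RhoGEF, was at 86.1 ± 2.21 and 84.2 ± 0.838 CPM, and Arhgef12, or LARG, at 177.8, 188 and 175 CPM in WT against 173, 183 and 181 CPM in the knockout, with overlapping libraries. Neither passed (edgeR adjusted p = 0.374 and 0.806), though with the offsets both were called lower, at log2 -0.16 and -0.20. Arhgef2, or GEF-H1, which is held inactive on microtubules and activates RhoA on release, had the highest level per length of the ARHGEF members, at 26.9 ± 0.483 CPM per kilobase in WT and 22.9 ± 0.133 in Ythdf2-KO. Its libraries stood at 270.2, 264 and 261 CPM in WT against 225, 225 and 227 CPM in the knockout, a fall of 1.17-fold (log2 -0.23 ± 0.022 SE, edgeR adjusted p = 3.11e-12). Arhgef28, or p190RhoGEF, a partner of focal adhesion kinase, went the other way. It stood at 5.49, 6.37 and 5.85 CPM in WT against 8.68, 9.39 and 9.77 CPM in the knockout, a rise of 1.57-fold with no overlap (edgeR adjusted p = 2.61e-08). Arhgef18, or p114RhoGEF, was called 1.08-fold higher with overlapping libraries, and lost the call without WT replicate 3 and without Ythdf2-KO replicate 2 or 3.

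Arhgef3, or XPLN, an activator of RhoA and RhoB, was lower in the knockout. It stood at 70.2, 71.6 and 70.4 CPM in WT against 42.7, 42.7 and 45.1 CPM in the knockout, so that all knockout libraries lay below all WT ones. The fall was 1.63-fold (log2 -0.70 ± 0.035 SE, edgeR adjusted p = 4.90e-22). Per kilobase of exon it ranked below Arhgef2 and above Arhgef12 in WT, at 15.6 ± 0.159 against 13.2 ± 0.517 CPM, and below both in Ythdf2-KO, at 9.61 ± 0.305 against 13.2 ± 0.386 CPM. Both PIX genes, whose products activate Rac and Cdc42 and bind PAK kinases, were lower. Arhgef7, or beta-PIX, fell 1.09-fold from 104 ± 3.70 to 95.9 ± 1.07 CPM. Arhgef6, or alpha-PIX, was rare, at 1.21, 1.68 and 1.93 CPM in WT against 0.966, 0.923 and 1.11 CPM in the knockout. Its fall of 1.61-fold was not called without WT replicate 3 (edgeR adjusted p = 0.0693).

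Ephexins, named for their link to Eph receptors, and SGEF, a RhoG activator, went different ways. Arhgef16 stood at 0.0720, 0.168 and 0.117 CPM in WT against 0.454, 0.437 and 0.621 CPM in the knockout, from 4, 11 and 8 counts to 31, 27 and 43. It rose 4.14-fold without overlap (log2 2.05 ± 0.45 SE, edgeR adjusted p = 1.38e-04), a value that so few counts leave wide. Its mean count reached the minimum for members only through the knockout libraries, and it is counted among the members at least 2-fold higher. Arhgef5, or TIM, fell 1.10-fold from 55.3 ± 1.46 to 50.2 ± 0.512 CPM. Arhgef19 was called 1.09-fold higher (edgeR adjusted p = 0.0470), which failed with the offsets (log2 0.007, edgeR adjusted p = 0.932), with the replicate block (edgeR adjusted p = 0.0591) and without each library but WT replicate 1. Arhgef15 (7.50 ± 0.520 and 7.58 ± 1.22 CPM) and Arhgef26, the SGEF gene (0.134 ± 0.0891 and 0.185 ± 0.136 CPM), did not pass.

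Arhgef4, or Asef, a partner of APC, was rare and stood at 0.144, 0.229 and 0.277 CPM in WT against 0.439, 0.470 and 0.505 CPM in the knockout. That 2.14-fold rise was not called without WT replicate 1 (edgeR adjusted p = 0.0892) or without Ythdf2-KO replicate 3 (edgeR adjusted p = 0.0656). Of the remaining RhoGEFs, Arhgef39 fell 1.35-fold from 14.0 ± 0.424 to 10.4 ± 0.333 CPM. Arhgef40, or Solo, was called 1.05-fold lower with overlapping libraries, a call that 12 of 17 alternatives did not make. Arhgef25, or GEFT, was called 1.10-fold higher with overlapping libraries, but not with the offsets (edgeR adjusted p = 0.278), without WT replicate 2 or without Ythdf2-KO replicate 1 or 2. Arhgef37, at 0.318 ± 0.136 and 0.560 ± 0.0564 CPM, did not pass (edgeR adjusted p = 0.0671) although its libraries did not overlap, and was called without WT replicate 2 (edgeR adjusted p = 0.040).

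The largest rise among the ARHGAP members was that of Arhgap27, which with Arhgap9 and Arhgap12 forms a group of multidomain GAPs of Rac and Cdc42. It stood at 0.630, 0.779 and 0.730 CPM in WT against 3.54, 3.63 and 3.05 CPM in the knockout. The groups lay far apart, by 4.75-fold (log2 2.25 ± 0.18 SE, edgeR adjusted p = 1.48e-14). Arhgap9 rose 1.18-fold from 33.4 ± 1.76 to 39.4 ± 0.783 CPM and Arhgap12 1.16-fold from 31.3 ± 0.581 to 36.3 ± 1.37 CPM, so all 3 of the group were higher. Exons of Arhgap27 share bases with antisense genes in the annotation, and without a stated strand setting their reads cannot be told apart.

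The CdGAP group acts on Rac, Cdc42 and RhoA. Arhgap30, known mainly from blood cells, stood at 6.68, 6.25 and 6.38 CPM in WT against 16.9, 19.1 and 19.1 CPM in the knockout, with no overlap. It rose 2.85-fold and was as high in knockout replicate 2 as in the library with the Ptprc counts (log2 1.51 ± 0.074 SE, edgeR adjusted p = 4.11e-22). Arhgap31, the CdGAP gene, rose 1.17-fold from 55.7 ± 1.47 to 65.1 ± 1.80 CPM, and Arhgap32, or p250GAP, 1.17-fold from 8.58 ± 0.545 to 10.04 ± 0.540 CPM. Both calls were lost with the offsets (edgeR adjusted p = 0.211 and 0.851), that of Arhgap32 also without WT replicate 2 or Ythdf2-KO replicate 2. Arhgap33 was at 11.2 ± 1.19 and 9.85 ± 0.483 CPM and did not pass (edgeR adjusted p = 0.0542), but was called lower with the offsets and without WT replicate 2 or Ythdf2-KO replicate 3.

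All 3 GRAF genes, whose products bind curved membranes and act on RhoA and Cdc42, were higher. Arhgap26, the GRAF1 gene, stood at 0.324, 0.137 and 0.306 CPM in WT against 0.761, 0.842 and 1.36 CPM in the knockout, a rise of 3.87-fold (log2 1.95 ± 0.34 SE, edgeR adjusted p = 3.78e-06). Its highest value was in the knockout library with the Ptprc counts. The groups did not overlap, and the rise was called without that library too, within a range of 1.65 to 2.14 in log2 over the 16 alternatives that tested it. Arhgap10 rose 1.202-fold from 43.8 ± 1.27 to 52.6 ± 0.363 CPM, and Arhgap42 1.35-fold from 39.2 ± 1.38 to 52.9 ± 1.98 CPM. The pair Arhgap21 and Arhgap23, GAPs that limit Cdc42 and RhoA at junctions and the Golgi, rose 1.19-fold from 115 ± 2.31 to 137 ± 2.42 CPM and 1.31-fold from 34.9 ± 0.952 to 45.6 ± 1.13 CPM.

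Both p190 GAPs were lower. Arhgap35, or p190A, the chief brake on RhoA at adhesions, stood at 225, 225 and 218 CPM in WT against 175.5, 179.8 and 178 CPM in the knockout. It fell 1.25-fold (log2 -0.32 ± 0.023 SE, edgeR adjusted p = 2.69e-16), with no overlap. Its paralog Arhgap5, or p190B, fell 1.08-fold from 109 ± 1.55 to 101 ± 4.47 CPM, but not with upper-quartile scaling (edgeR adjusted p = 0.121). Arhgap29, a RhoA GAP that acts downstream of Rap1, stood at 11.5, 13.1 and 11.3 CPM in WT against 5.84, 6.45 and 7.13 CPM in the knockout, a fall of 1.84-fold without overlap (edgeR adjusted p = 3.44e-12). Arhgap11a, which acts on RhoA in dividing cells, stood at 138, 138 and 132 CPM in WT against 99.4, 96.7 and 90.2 CPM in the knockout. It fell 1.42-fold (log2 -0.51 ± 0.030 SE, edgeR adjusted p = 6.29e-17), while Arhgap19, another GAP of dividing cells, was at 35.6 ± 0.702 and 35.1 ± 0.351 CPM and did not pass.

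Per kilobase of exon, Arhgap1, Arhgap35 and Arhgap11a had the highest levels of the ARHGAP members. Arhgap1, or p50RhoGAP, stood at 127, 128 and 123 CPM in WT against 127, 128 and 139 CPM in the knockout, or 29.4 ± 0.620 and 30.7 ± 1.51 CPM per kilobase. It did not pass (edgeR adjusted p = 0.0851), though it was called higher under 6 of 17 alternatives. Arhgap35 and Arhgap11a stood at 24.3 ± 0.432 and 25.5 ± 0.675 CPM per kilobase in WT and at 19.5 ± 0.241 and 17.9 ± 0.895 in Ythdf2-KO. In WT and in Ythdf2-KO both were below Arhgap1 by more than the spread of the libraries.

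Of the FilGAP group, which turns off Rac downstream of ROCK, Arhgap22 was at 30.6, 31.4 and 31.7 CPM in WT against 30.5, 31.4 and 30.7 CPM in the knockout. The libraries overlapped, and the difference of -0.016 ± 0.044 (log2, SE) did not pass (edgeR adjusted p = 0.802). In the annotation, 36.9% of its exon bases overlap an antisense gene. Arhgap25, a GAP of blood cells, was rare at 0.504, 0.840 and 0.540 CPM in WT against 0.381, 0.324 and 0.231 CPM in the knockout. Its fall of 2.02-fold was not called without WT replicate 2 (edgeR adjusted p = 0.152) or Ythdf2-KO replicate 3 (edgeR adjusted p = 0.0765). Of the RICH genes, Arhgap44 fell 2.11-fold, from 0.432, 0.367 and 0.569 CPM in WT to 0.190, 0.211 and 0.245 CPM in the knockout. That call was lost without WT replicate 3 or without Ythdf2-KO replicate 1 or 2 (edgeR adjusted p = 0.141, 0.0789 and 0.0579). Its relative Arhgap17 was called 1.10-fold higher with overlapping libraries, but not without replicate 3 of either genotype.

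Of the other RhoGAPs, Arhgap39 rose 1.17-fold from 22.1 ± 0.277 to 25.8 ± 0.243 CPM, but not with the offsets (edgeR adjusted p = 0.220). Arhgap18, a RhoA GAP, was called 1.12-fold higher at 16.6 ± 0.464 CPM, and the call failed under 7 of 17 alternatives, among them leaving out WT replicate 1 or 3 or Ythdf2-KO replicate 1 or 3. Arhgap28 was at 16.6 ± 0.447 CPM in WT against 15.3 ± 0.334 CPM in the knockout, and did not pass although its libraries did not overlap (edgeR adjusted p = 0.107), but was called lower with the offsets (edgeR adjusted p = 0.0138). Arhgap45 (7.69 ± 1.31 and 8.14 ± 0.440 CPM), Arhgap6 (2.94 ± 0.384 and 2.70 ± 0.158 CPM) and Arhgap8 (0.522 ± 0.116 and 0.480 ± 0.0784 CPM) overlapped and did not pass. The same held for Arhgap4 (0.485 ± 0.145 and 0.532 ± 0.186 CPM) and Arhgap40 (0.161 ± 0.109 and 0.248 ± 0.0656 CPM).

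The member nearest above the count minimum was Arhgef26, with a mean of 10.7 counts, and the gene nearest below was Arhgef38, with 7.83. Arhgef33 had a mean of 7.17 counts, Dock2 5.83, Arhgap15 3.33, Arhgap36 2.33, Arhgap24 1.33 and Arhgap20 0.333. Arhgap15, a blood-cell gene, had its 10 counts of the highest library in the knockout library with the Ptprc counts. Arhgap24, the FilGAP gene, had 4, 2 and 2 counts in WT and 0 in each Ythdf2-KO library.

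**Figure D4:**
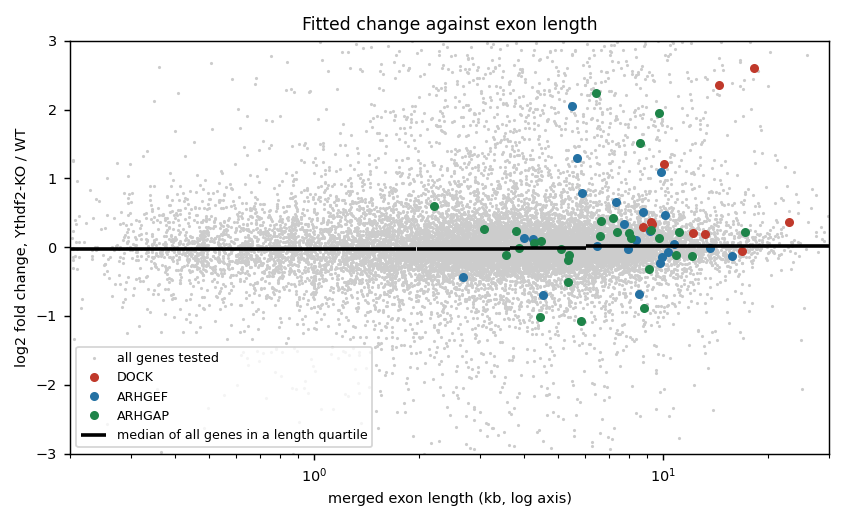
Log2 fold change against merged exon length on a log axis for all genes tested (grey), drawn between -3 and 3 and from 0.2 to 30 kilobases, with the members coloured by family. Black bars are the medians of all genes in each length quartile, from -0.023 in the shortest to 0.016 in the longest, which holds 43 of the 63 members.

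The members share long exons. The median merged exon length was 12707 bases for DOCK, 8395 for ARHGEF and 6619.5 for ARHGAP genes, against 3652 over the genes tested. Median GC content was 48.6, 53.6 and 51.2%, against 49.3%. In the shortest quartile of all genes 12.9% were called higher and 16.7% lower, and in the longest 36.3 and 30.6%. In the annotation, more than 10% of the exon bases of Arhgap4, Arhgap6, Arhgap10, Arhgap22, Arhgap27, Arhgef11 and Arhgef26 also belong to another gene, so their counts are uncertain. The part of length in the members' calls was not tested apart from the offsets given above.

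GEFs and GAPs that carry other names were counted in the same way. Of 37 such RhoGEFs tested, 20 were higher and 9 lower (median log2 change 0.13), and of 23 RhoGAPs 12 were higher and 6 lower (median 0.079). These are 54.1 and 52.2% higher, against 24.1% of all genes, and 24.3 and 26.1% lower, near the 25.8% of all genes. They too are long genes, with median exon lengths of 8264 and 7079 bases against 3652 over the genes tested. With the offsets, 14 of these RhoGEFs were lower, as were 5625 of all 17718 genes. The part of length in these calls was not tested. Plekhg6 rose 6.16-fold from 1.78 ± 0.242 to 10.9 ± 0.305 CPM, and Prex2, a Rac activator switched on by G-protein signals and PI3K products, 5.05-fold to 1.997 ± 0.237 CPM. Plekhg1 rose 3.66-fold to 1.40 ± 0.268 CPM. Fgd3, a Cdc42 activator, fell 9.74-fold, from 4.55 ± 0.390 to 0.463 ± 0.136 CPM. Abr, which carries both a GEF and a GAP domain, fell 2.202-fold from 289 ± 2.53 to 131 CPM, the largest fall in CPM among these genes. Among the GAPs, Srgap1 of the Slit-Robo pathway rose 5.85-fold to 3.01 ± 0.678 CPM, the Rac inactivator Chn2 4.69-fold to 4.25 ± 0.333 CPM and Stard8 2.13-fold to 8.76 ± 0.932 CPM.

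Of 19 GTPases tested, 5 were higher, or 26.3% against 24.1% of all genes, and 9 lower, or 47.4% against 25.8% (median log2 change -0.019). Rhoa and Rac1 did not pass, at log2 -0.015 and -0.019 (edgeR adjusted p = 0.614 and 0.483), and Cdc42 was higher by 0.057. Rnd1, an atypical member that opposes RhoA, fell 2.56-fold from 5.31 ± 0.350 to 2.07 ± 0.211 CPM. Of 10 tested RhoGDIs, which hold the GTPases in the cytosol, and partners of DOCK proteins, 4 were higher and 4 lower, or 40.0% each way. Arhgdia rose 1.07-fold to 702 ± 15.3 CPM and Arhgdib fell 1.48-fold from 396 ± 9.27 to 268 ± 2.81 CPM. Bcar1, Crk and Crkl, whose products bring DOCK1 to adhesions, fell 1.32-, 1.14- and 1.12-fold. Elmo2, a DOCK1 partner, rose 1.13-fold, while Elmo1 (1.23 ± 0.175 and 1.06 ± 0.161 CPM) and Elmo3 (log2 0.42, edgeR adjusted p = 0.055) did not pass. Lrch1, whose product binds DOCK8, rose 1.42-fold to 17.4 ± 0.889 CPM, and Lrch3 1.14-fold.

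Of 39 effectors, the proteins that carry the signal on, 15 were higher (38.5%) and 10 lower (25.6%), with a median of 0.046. Of all genes, 24.1% were higher and 25.8% lower. With the offsets this list stood at 9 higher and 17 lower, and all 17718 genes at 3307 higher and 5625 lower. Mylk, the myosin light-chain kinase gene, rose 2.41-fold from 8.36 ± 0.109 to 20.2 ± 0.651 CPM, and the scaffold gene Iqgap2 10.2-fold from 0.117 ± 0.0629 to 1.21 ± 0.145 CPM (SD, n = 3).

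**Figure D5:**
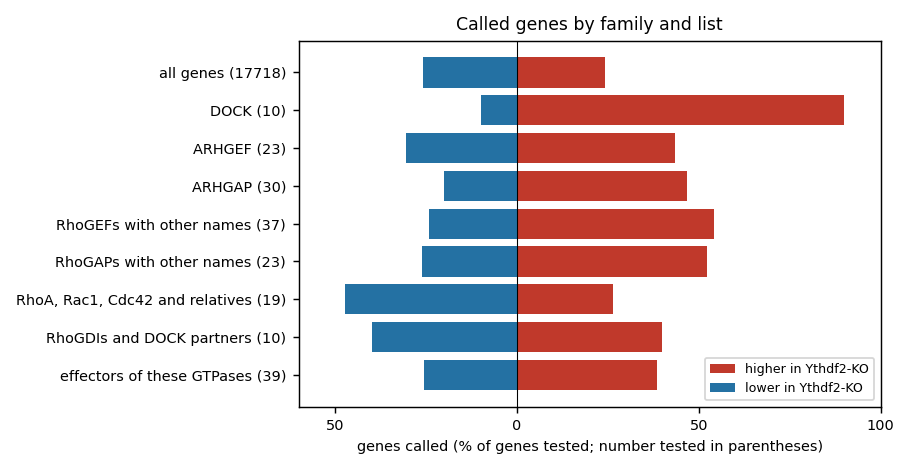
Share of genes called higher (red, right) and lower (blue, left) in Ythdf2-KO, as a percentage of the genes tested, for all genes, the 3 families and the other lists of the pathway. The DOCK bar reaches 90.0% higher and 10.0% lower, against 24.1 and 25.8% of all genes.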

How the data were processed

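Polyadenylated RNA of 3 WT and 3 Ythdf2-KO libraries was read as paired ends, per the labels' protocols. Per the submitters' processing notes, the authors used fastp 0.23.2, HISAT2 2.2.1 and featureCounts 2.0.6 with GRCm39. The deposited values are raw whole counts for each gene symbol. Settings for strand and multi-mapping reads were not given in the sources used. Genes with 1 to 10 counts held an even count 1.88 to 2.14 times as often as an odd one, so counts need not be independent fragments; whether both reads of a pair were counted singly was not tested.

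Genes were kept by filterByExpr (17718) and compared in R 4.3.3 with edgeR 4.0.16 (TMM, robust quasi-likelihood, biological coefficient of variation 3.48%), with p-values adjusted by Benjamini and Hochberg over these genes. The pipeline was run on simulated counts in which few genes changed, as many up as down. That run cannot show how calling behaves where many genes differ, as here. Exon lengths, GC content and overlaps came from GENCODE M21 (GRCm38), joined by symbol for 94.6% of the genes tested, and promoters from RefSeq (GRCm38.p6). Families were described by counts and medians, without set tests. Every member is named except 2 that are not reported here, with library values for members called and at least 1.5-fold apart, the 3 of each family highest per length and the 2 of each with the smallest adjusted p; other genes of the pathway were named when called, 2-fold apart and at 1 CPM or more, or as partners of members. Members, lists, motifs and rules were chosen with earlier results of these data known. Alternatives were other scalings, filters, tests (DESeq2 1.42.0, limma-voom in limma 3.58.1), the replicate block, offsets for length and GC, an adjusted p under 0.01, a mean of 100 counts and leaving out libraries. Figures were drawn with matplotlib 3.10.9.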

Additional observations from a re-analysis of the deposited data

How the results depend on the processing

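Of 788 checks of the 47 called members, 702 kept the direction and the call, 84 lost the call and 2 changed sign. Under every alternative that tested them, 19 of the 33 higher and 8 of the 14 lower calls held. Of these, Dock3, Dock8, Dock10, Arhgap26, Arhgap27 and Arhgef16 were not tested with a mean of 5 CPM, where 6 DOCK genes were called higher. Leaving aside the length and GC offsets, 25 of the 33 higher calls held. The number of DOCK genes called lower was 0 in place of 1 with RLE or upper-quartile scaling, with TMM without the 20 most abundant and mitochondrial genes, with no filter, with a mean of 5 CPM, with the DESeq2 Wald test, with the replicate block or at an adjusted p under 0.01, and ran from 0 to 1 over the left-out libraries. The replicate block left 32 members higher and 12 lower and changed no other count of calls by over 1.5 times; same-numbered libraries did not deviate together (correlations 0.011, -0.037 and -0.052), so the numbers were not taken as pairs.

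With upper-quartile scaling the DOCK, ARHGEF and ARHGAP medians were 0.402, 0.161 and 0.189, and 5 RhoGEFs with other names were lower. With no filter the DOCK median was 0.368, and with a mean of 5 CPM the DOCK and ARHGEF medians were 0.323 and 0.040. With the offsets the medians were 0.166, -0.034 and 0.003, ARHGEF and ARHGAP held 5 and 9 higher members, RhoGDIs and DOCK partners 2 higher, effectors 9 higher and 17 lower, and RhoGEFs with other names 14 lower; the cause was not tested. At an adjusted p under 0.01, 5 ARHGEF members and 3 of the GTPases were higher. Members with a mean of 100 counts gave an ARHGEF median of 0.030. Over libraries left out singly, the DOCK median ran from 0.335 to 0.396, the ARHGEF median from 0.049 to 0.158 and the ARHGAP median from 0.078 to 0.187; without replicate 3 of both genotypes the DOCK and ARHGAP medians were 0.332 and 0.091.

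Signs changed for the following members, of which Arhgap17 and Arhgef18 had been called. With upper-quartile scaling, log2 values were 0.021 for Arhgef11, 0.045 for Arhgef12, 0.038 for Arhgap22 and 0.032 for Arhgap19. With no filter they were 0.011 for Arhgef12 and 0.004 for Arhgap22, and with a mean of 5 CPM 0.015 for Arhgef12, 0.008 for Arhgap22 and 0.002 for Arhgap19. With the offsets they were -0.152 for Arhgef17, -0.002 for Arhgap17, -0.034 for Arhgef18, -0.009 for Arhgap45, -0.097 for Arhgef15 and 0 for Arhgap4. Over libraries left out singly the ranges were -0.129 to 0.384 for Arhgap4, -0.034 to 0.212 for Arhgap45, -0.272 to 0.046 for Arhgap8, -0.031 to 0.034 for Arhgef12, -0.126 to 0.084 for Arhgef15 and -0.011 to 1.16 for Arhgef26. Without replicate 3 of both genotypes the values were 0 for Arhgap1, -0.037 for Arhgap4, -0.080 for Arhgap45 and 0.115 for Arhgap8.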
